A study of Mus musculus with 6 samples.

Results

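The genes described here are those of the TGF-beta and SMAD pathway in cells sorted from mouse bone marrow: the ligand gene Tgfb1, the receptor genes Tgfbr1 and Tgfbr2, the SMAD genes Smad2, Smad3, Smad4, Smad5 and Smad7, and the repressor genes Ski and Skil. They were taken by gene symbol, all 10 were found among the 21878 genes listed per library, and all 10 stood above 1 FPKM in each of the 6 libraries. FPKM counts sequenced fragments for each kilobase of a gene, relative to a library's size. The cells carry the label LT-HSC, for long-term hematopoietic stem cell, and came from wild-type (WT) mice. For 3 months the mice had eaten either a diet free of serine and glycine (SGFD) or a control diet (CD). There were 3 libraries for each diet. Sorted cells were positive for c-Kit and Sca1 and lacked lineage antigens, CD34 and CD135. The labels give no strain, sex or age, and do not say whether 1 mouse or several went into a library. P-values thus refer to differences among these libraries, which may be technical. The comparison asks how the transcriptome of these cells differs when serine and glycine are missing from food.

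TGF-beta is secreted in a latent form, held in the matrix or on cell surfaces, and is released by integrins and proteases. The active ligand binds the type II receptor TGFBR2, which recruits and phosphorylates the type I receptor TGFBR1, and TGFBR1 then phosphorylates SMAD2 and SMAD3. These join SMAD4 and enter the nucleus, where they switch genes on or off together with other factors. SMAD5 does the same work for receptors of bone morphogenetic proteins (BMPs). SMAD7 blocks the receptors, and SKI and SKIL (also called SnoN) repress SMAD complexes on DNA. Smad7 and Skil are themselves switched on by the pathway, as negative feedback. In bone marrow, TGF-beta is known as a signal that keeps hematopoietic stem cells out of the cell cycle.

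With SGFD, the ligand gene and both feedback genes were higher, and most of the genes that receive and carry the signal were lower. Skil stood at 2.04 times its CD level, Smad7 at 1.34 times and Tgfb1 at 1.16 times. Smad5, Ski, Smad3, Tgfbr2, Tgfbr1 and Smad4 stood at 0.618 to 0.785 times their CD levels. Smad2 did not pass the threshold. By limma, with an adjusted p of 0.05 as the threshold over 10620 genes tested, 3 of the 10 genes rose and 6 fell. Of all genes tested 59.4% were called, 17.7% higher and 41.8% lower, so falls outnumbered rises on the deposited values. That excess depended on transcript length and on scaling. The shortest of 10 bins of annotated transcript length had 431 rises and 140 falls, and the longest had 43 and 797. Median-ratio scaling gave 3170 rises and 2712 falls over all genes. The groups did not overlap for 9 of the 10 genes, 3 higher and 6 lower, as for 65.2% of all genes tested (19.6% higher and 45.5% lower). On the log2 scale the median fold change was -0.37 over the 10 genes and -0.13 over all genes tested.

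**Figure D1:**
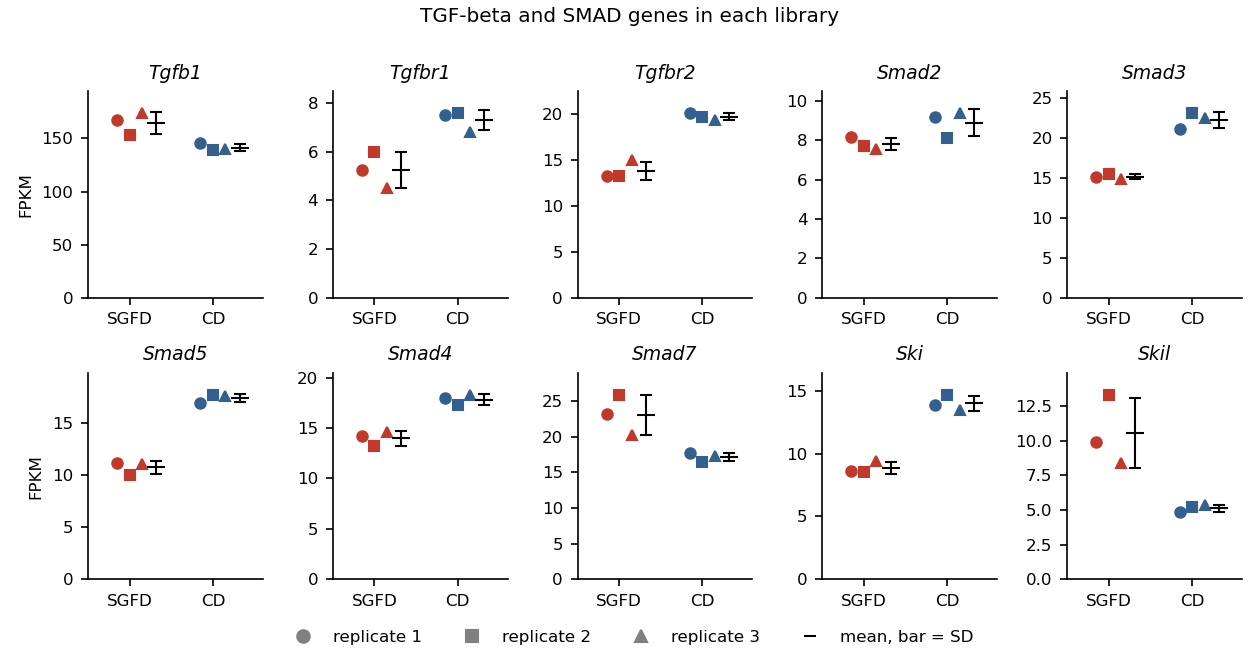
FPKM of each of the 10 genes in each library (symbols, replicates 1 to 3), SGFD in red and CD in blue, with the mean and SD beside them; every axis starts at 0. Skil, Smad7 and Tgfb1 sit higher with SGFD, and the groups overlap only for Smad2.

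Some properties of these libraries touch each of those values. The libraries held 13781 to 14106 genes above 0, and their FPKM sums ran from 464222 to 485048 with SGFD and from 427769 to 433592 with CD. Fragments recovered from the values came to between 525 (Tgfbr1) and 7145 (Tgfb1) per library for the 10 genes. Of the marker lists, 8 of 8 tested monocyte genes and 9 of 9 tested genes of neutrophils and their progenitors rose with SGFD. The summed level of the monocyte list was 222 to 239 FPKM with SGFD and 66.2 to 68.0 FPKM with CD, and that of the neutrophil list was 3368 to 3739 FPKM with SGFD and 870.3 to 899 FPKM with CD. Of 8 tested LT-HSC markers 6 fell, with a summed level of 50.8 to 52.5 FPKM with SGFD and 111 to 116 FPKM with CD. Of these, 1 monocyte and 2 neutrophil genes passed the filter on low values through SGFD libraries alone. Macrophage markers (4 of 4 tested fell, all of them admitted through CD alone) had a summed level of 1.24 to 1.73 FPKM with SGFD and 8.52 to 10.3 FPKM with CD, megakaryocyte and platelet markers of 54.6 to 56.7 FPKM with SGFD and 54.5 to 59.7 FPKM with CD (of 5 tested, Pf4, Gp5 and Treml1 fell and Itga2b, the bulk of the sum, rose), and stromal and endothelial markers of 5.87 to 7.01 FPKM with SGFD and 11.9 to 12.6 FPKM with CD. B cell markers summed to 24.2 to 25.0 FPKM with SGFD and 23.2 to 29.5 FPKM with CD, erythroid markers to 92.1 to 96.4 FPKM with SGFD and 210 to 217 FPKM with CD, and T and NK cell markers to 120 to 139 FPKM with SGFD and 102 to 107 FPKM with CD, nearly all from Nkg7, with Cd3e listed at 0. Most of the stromal and endothelial sum was Emcn, with means of 5.99 FPKM with SGFD and 11.2 FPKM with CD. No other gene of that list passed the filter. Likewise, Car2 (89.4 FPKM with SGFD and 192 FPKM with CD) made up most of the erythroid sum, and Cd79b (24.0 and 23.1 FPKM) most of the B cell sum. The part of other cell types in the results below was not tested, and in bulk samples fewer cells of a type and less RNA per cell cannot be told apart.

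Tgfb1, on chromosome 7 from 25687002 to 25705077 (GRCm38.p6), was the one TGF-beta ligand gene that passed the filter. It had 167, 153 and 174 FPKM in SGFD replicates 1 to 3, against 145, 139 and 140.1 FPKM in CD replicates 1 to 3. Every SGFD library lay above every CD library, and SGFD replicate 2 was the nearest to them. The mean was 165 ± 10.6 FPKM with SGFD and 141 ± 3.53 FPKM with CD (SD, n = 3 each), a log2 fold change of 0.22 ± 0.05 (SE; limma, adjusted p = 0.00374). This call depended on the scaling between libraries: with each library set to the same FPKM sum the log2 fold change was 0.073 (limma, adjusted p = 0.128), and after quantile normalization it was 0.073 (limma, adjusted p = 0.146). At the CD level, Tgfb1 exceeded 96.3% of the tested genes. Tgfb2 and Tgfb3 were below the filter, with at most 0.0681 and 0.517 FPKM in any SGFD library and at most 0.0672 and 0.308 FPKM in any CD library.

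The stretches upstream of 4 start sites are shown here because they belong to a gene that rose (Tgfb1) and to genes that fell (Tgfbr2, Smad3 and Ski). Each line gives the 250 bases before the RefSeq start of the gene in GRCm38.p6, 5′ to 3′ on the strand of the gene, with matches to the GC box GGGCGG on either strand in capitals.
Tgfb1, chr7:25686752-25687001, plus strand: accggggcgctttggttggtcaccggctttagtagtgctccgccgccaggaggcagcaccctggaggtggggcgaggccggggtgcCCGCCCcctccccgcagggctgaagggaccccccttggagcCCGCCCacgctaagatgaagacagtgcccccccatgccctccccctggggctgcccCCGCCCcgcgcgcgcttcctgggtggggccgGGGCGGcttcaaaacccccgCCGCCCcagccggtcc
Tgfbr2, chr9:116175364-116175613, minus strand: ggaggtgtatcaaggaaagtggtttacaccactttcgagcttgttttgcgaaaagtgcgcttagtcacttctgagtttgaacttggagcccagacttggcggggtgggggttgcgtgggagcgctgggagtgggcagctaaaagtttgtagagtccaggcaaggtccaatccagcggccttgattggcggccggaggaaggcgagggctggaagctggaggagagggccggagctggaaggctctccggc
Smad3, chr9:63757995-63758244, minus strand: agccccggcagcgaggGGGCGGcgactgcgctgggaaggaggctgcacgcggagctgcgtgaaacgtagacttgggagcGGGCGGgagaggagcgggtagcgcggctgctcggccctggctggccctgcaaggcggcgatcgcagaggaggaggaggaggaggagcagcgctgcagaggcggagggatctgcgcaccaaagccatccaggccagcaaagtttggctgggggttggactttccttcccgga
Ski, chr4:155222536-155222785, minus strand: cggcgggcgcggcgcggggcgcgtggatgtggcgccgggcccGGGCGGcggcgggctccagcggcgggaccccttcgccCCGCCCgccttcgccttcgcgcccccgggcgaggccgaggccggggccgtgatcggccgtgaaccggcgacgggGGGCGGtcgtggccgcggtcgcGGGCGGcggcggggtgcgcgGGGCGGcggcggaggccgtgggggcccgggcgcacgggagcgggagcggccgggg
The GC box, a site that SP1-type factors are known to bind, had 5 matches before Tgfb1, 5 before Ski, 2 before Smad3 and 0 before Tgfbr2, and none of these matches overlapped another. RefSeq stretches were matched for 6 of the 10 genes, with 9 start sites in all. A GC box was held by 7 of the 9 stretches, and by 5 of the 6 genes. Among 32851 upstream stretches of the same length the share was 32.7%. Overlapping stretches of Smad5 starts hold the same GC box, so it was counted more than once. Also searched on both strands were the SMAD palindrome GTCTAGAC, the SMAD box CAGACA and the AP-1 site TGANTCA, which 0.167%, 17.1% and 6.75% of all stretches hold. Of the 9 stretches, 1 held a CAGACA, before a downstream start of Tgfbr1, and none held either of the other motifs. GC content was 75.2% before Tgfb1, 58.4% before Tgfbr2, 69.2% before Smad3 and 87.6% before Ski, against a median of 52.4% over all stretches.

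Both receptor genes were lower with SGFD on the deposited values, but neither passed once a trend with annotated transcript length was removed (limma, adjusted p = 0.187 for Tgfbr1 and 0.255 for Tgfbr2), and Tgfbr1 did not after quantile normalization (0.0956). Tgfbr2, on chromosome 9 from 116087695 to 116175363 (GRCm38.p6), had 13.3, 13.2 and 15.0 FPKM in SGFD replicates 1 to 3, against 20.1, 19.6 and 19.3 FPKM in CD replicates 1 to 3. No library of one diet reached those of the other. The means were 13.8 ± 0.989 FPKM with SGFD and 19.7 ± 0.375 FPKM with CD, a log2 fold change of -0.48 ± 0.06 (SE; limma, adjusted p = 0.000134). Tgfbr1, on chromosome 4 from 47353222 to 47414926, had 5.26, 5.98 and 4.51 FPKM with SGFD, against 7.49, 7.57 and 6.81 FPKM with CD (replicates 1 to 3 of each). The SGFD libraries again lay below all CD libraries, with a log2 fold change of -0.41 ± 0.09 (SE; limma, adjusted p = 0.00371). Within a library the ratio of the receptor genes overlapped between diets: Tgfbr1 was at 0.383 ± 0.076 times Tgfbr2 with SGFD and at 0.370 ± 0.0166 times with CD (exact permutation test, two-sided, p = 0.8, adjusted p = 1 over 4 such values, n = 3 each). With 3 libraries against 3, that test cannot go below 0.1.

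Of the receptor-regulated SMADs, Smad3 and Smad5 fell and Smad2 did not pass. Smad3, which carries TGF-beta signals and binds DNA directly, had 15.2, 15.5 and 14.8 FPKM in SGFD replicates 1 to 3, against 21.2, 23.1 and 22.5 FPKM in CD replicates 1 to 3. These values were tight within each diet and did not overlap, with a log2 fold change of -0.52 ± 0.06 (SE; limma, adjusted p = 4.3e-05). Smad5, of the BMP arm, had 11.2, 10.04 and 11.1 FPKM with SGFD, against 17.0, 17.7 and 17.6 FPKM with CD, and its log2 fold change of -0.65 ± 0.06 (SE) was the lowest of the 10 genes. Only 5.47% of tested genes had a lower log2 fold change than Smad5. Smad2, the partner of Smad3, had 8.15, 7.72 and 7.56 FPKM with SGFD, against 9.18, 8.10 and 9.37 FPKM with CD. Its groups overlapped through CD replicate 2, and its log2 fold change of -0.16, with a 95% interval from -0.33 to 0.00, did not pass (limma, adjusted p = 0.083). Without CD replicate 2, which alone set that overlap, Smad2 passed at -0.22 (limma, adjusted p = 0.0417).

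Smad3 was lower relative to Smad2 in every SGFD library. It stood at 1.86, 2.001 and 1.96 times Smad2 in SGFD replicates 1 to 3, against 2.30, 2.86 and 2.40 times in CD replicates 1 to 3. The ratios did not overlap, and the difference on the log2 scale was -0.37 (exact permutation test, two-sided, p = 0.1, the smallest possible here; adjusted p = 0.2). Smad2 and Smad3 together made up 53.6 ± 0.662% of the summed FPKM of Smad1, Smad2, Smad3, Smad5 and Smad9 with SGFD and 53.6 ± 0.162% with CD, so the share of the TGF-beta arm differed by less than the spread between libraries. Smad1, the main partner of Smad5 in BMP signalling, had 9.22, 10.5 and 7.73 FPKM with SGFD, against 9.48, 9.22 and 9.82 FPKM with CD. Its groups overlapped and it did not pass (limma, adjusted p = 0.601).

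Smad4, the partner shared by both arms, had 14.2, 13.2 and 14.6 FPKM in SGFD replicates 1 to 3, against 17.9, 17.2 and 18.3 FPKM in CD replicates 1 to 3. Its groups did not overlap and its log2 fold change was -0.33 ± 0.06 (SE; limma, adjusted p = 0.00108), a call lost once a trend with implied gene length was removed (0.971). At -0.20 relative to the median gene, it was the smallest of the 6 falls on the deposited values. Smad2, Smad4 and Smad7 lie on chromosome 18, Smad3 lies on chromosome 9 and Smad5 on chromosome 13.

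The inhibitors went in both directions. Smad7, which binds the active receptor and brings ubiquitin ligases to it, had 23.1, 25.8 and 20.2 FPKM in SGFD replicates 1 to 3, against 17.7, 16.5 and 17.3 FPKM in CD replicates 1 to 3. SGFD replicate 2 was the highest and SGFD replicate 3 the lowest of the SGFD libraries, and all lay above CD. The means were 23.1 ± 2.81 FPKM with SGFD and 17.2 ± 0.597 FPKM with CD, a log2 fold change of 0.40 ± 0.08 (SE; limma, adjusted p = 0.00174), which exceeded that of 94.9% of tested genes. Smad6, the inhibitory SMAD of the BMP arm, went the other way, with 1.13 ± 0.218 FPKM with SGFD and 1.98 ± 0.144 FPKM with CD (limma, adjusted p = 0.00264; 0.085 after quantile normalization).

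Skil, on chromosome 3 from 31095058 to 31122923, moved furthest of the 10 genes on the deposited values. It had 9.89, 13.3 and 8.37 FPKM in SGFD replicates 1 to 3, against 4.86, 5.23 and 5.35 FPKM in CD replicates 1 to 3. The lowest SGFD library was above the highest CD library, though the SGFD libraries spread more widely. The log2 fold change was 0.89 ± 0.13 (SE; limma, adjusted p = 0.000268), and without SGFD replicate 2 it was 0.72. Ski, the gene of the related repressor, on chromosome 4 from 155154075 to 155222535, had 8.62, 8.51 and 9.41 FPKM with SGFD, against 13.8, 14.7 and 13.5 FPKM with CD. It fell by 0.61 on the log2 scale (limma, adjusted p = 5.3e-05). The ratio of Skil to Ski was thus 1.15, 1.56 and 0.890 in SGFD replicates 1 to 3, against 0.351, 0.357 and 0.397 in CD replicates 1 to 3, without overlap (exact permutation test, two-sided, p = 0.1; adjusted p = 0.2).

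These opposite moves changed the order of the genes. In FPKM, a level per length of gene, Tgfb1 was highest with either diet. With SGFD, Smad7 came next at 23.1 FPKM, followed by Smad3, Smad4, Tgfbr2, Smad5, Skil, Ski, Smad2 and Tgfbr1. With CD, Smad7 was the sixth at 17.2 FPKM, after Smad3, Tgfbr2, Smad4 and Smad5, and Skil was last at 5.14 FPKM. Among neighbours in this order, the libraries did not separate Smad4 from Tgfbr2, Smad5 from Skil or Skil from Ski with SGFD, nor Smad4 from Smad5 or Smad5 from Smad7 with CD.

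Transcript length moved with the fold change in these libraries, and most of the 10 genes have long transcripts. When all tested genes were split into 10 bins of annotated length, the bin medians ran from 0.13 (shortest) to -0.38 (longest) on the log2 scale. The bins of Tgfbr2 and Tgfbr1 had medians of -0.38 and -0.29, close to the values of these genes. When the trend with annotated length was removed from each library, Smad3 (-0.29), Smad5 (-0.34) and Ski (-0.34) were still called lower, and Skil (1.20), Smad7 (0.58) and Tgfb1 (0.27) higher. Tgfbr1 (-0.14; limma, adjusted p = 0.187) and Tgfbr2 (-0.11; limma, adjusted p = 0.255) lost their calls, and Smad2 turned to 0.21 (limma, adjusted p = 0.039). With the gene length that the values themselves imply, Tgfbr2 kept its call (-0.26; limma, adjusted p = 0.00976), while Tgfbr1 (-0.13; limma, adjusted p = 0.206) did not and Smad4 was at 0.00 (limma, adjusted p = 0.971). Smad4 has a longest annotated transcript of 3384 bases, against an implied length of 8376 bases. Implied lengths were scaled by recovered fragments alone, which covered 85.2% to 87.2% of FPKM, so they can read too long. Calls that held under every alternative tried were those of Smad3, Smad5, Smad7, Ski and Skil.

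**Figure D2:**
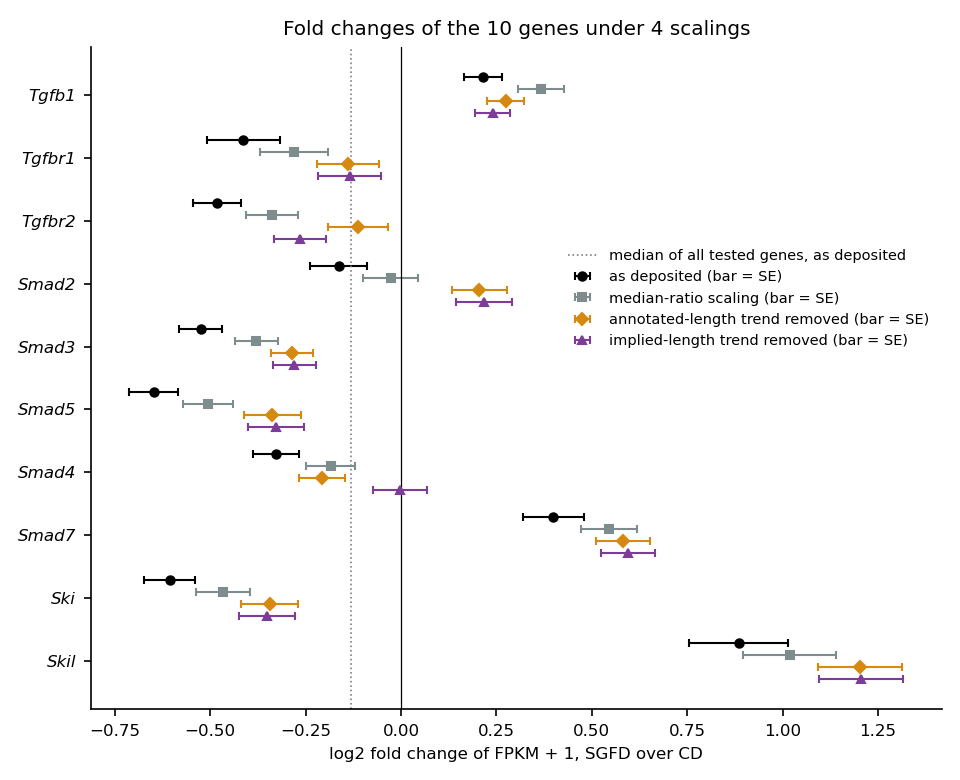
Log2 fold change of FPKM + 1, SGFD over CD, of each gene (points, bars are SE) on the deposited values, after median-ratio scaling and after removing a trend with annotated or implied transcript length; the dotted line is the median of all tested genes at -0.13. Smad4 moves to 0.00 and Smad2 to 0.22 with the implied length, while Skil lies between 0.89 and 1.21.

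**Figure D3:**
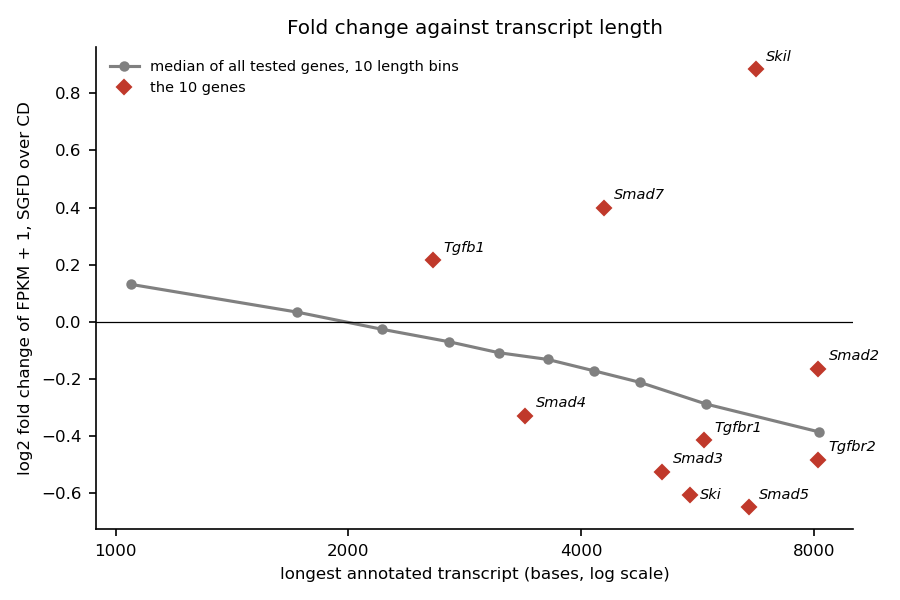
Log2 fold change of FPKM + 1, SGFD over CD, against the longest annotated transcript in bases on a log scale, for the 10 genes (diamonds) and as the median of all tested genes in 10 length bins (line). The line goes down from 0.13 to -0.38; Skil, Smad7 and Tgfb1 stand well above it, and Tgfbr2 lies close to it.

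Other receptor genes of the family were mostly lower as well. Of 14 in the list 8 were tested, 6 fell and 1 rose, and the median was -0.46 on the log2 scale. The shares over all genes tested were 41.8% lower and 17.7% higher. Eng (endoglin, a co-receptor for TGF-beta and BMPs used as a surface marker of stem cells) had 23.4 ± 0.985 FPKM with SGFD and 36.7 ± 0.116 FPKM with CD (limma, adjusted p = 5.8e-06). Acvr1b, a type I receptor for activins, had 16.8 ± 0.595 FPKM with SGFD and 25.5 ± 0.625 FPKM with CD, and the BMP type II receptor gene Bmpr2 had 3.66 ± 0.141 FPKM with SGFD and 6.54 ± 0.192 FPKM with CD. Acvr2b, an activin type II receptor gene near the filter, also fell, with 1.09 ± 0.26 FPKM with SGFD. Bambi, which encodes a receptor without a kinase that blocks signalling, was the one that rose, with 3.34 ± 0.562 FPKM with SGFD and 2.12 ± 0.543 FPKM with CD. After removal of the trend with either length, 3 of the 8 were lower and 1 higher: Bmpr2 lost its call with annotated length (limma, adjusted p = 0.112) and Acvr2b with implied length (limma, adjusted p = 0.455) and after quantile normalization (0.0762).

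Genes that store or release latent TGF-beta had more falls than rises on the deposited values. Of 19 listed 9 were tested, of which 5 fell and 1 rose, with a median of -0.29. Among all genes tested 41.8% fell and 17.7% rose, with a median of -0.13. Ltbp3, which encodes a latent TGF-beta binding protein, had 15.4 ± 1.26 FPKM with SGFD and 21.7 ± 0.962 FPKM with CD. Itgb5, an integrin chain of a latent TGF-beta receptor, had 7.38 ± 0.801 FPKM with SGFD and 14.5 ± 0.495 FPKM with CD, and the gelatinase gene Mmp2 had 3.47 ± 0.21 FPKM with SGFD and 7.61 ± 0.0886 FPKM with CD. Mmp14, a membrane protease gene, moved the other way, with 7.14 ± 0.868 FPKM with SGFD and 2.45 ± 0.306 FPKM with CD, a log2 fold change of 1.24 ± 0.10 (SE; limma, adjusted p = 8.8e-06). With median-ratio scaling, or with either length trend removed, 3 of the 9 genes were lower and 3 higher.

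Of 23 other ligand and antagonist genes only 2 passed the filter. Gdf15, which encodes a stress-induced secreted protein, rose, with 2.64 ± 0.239 FPKM with SGFD and 1.90 ± 0.117 FPKM with CD (limma, adjusted p = 0.0103; 0.054 with equal FPKM sums), and Gdf3 did not pass, with 2.33 ± 0.34 FPKM with SGFD and 2.27 ± 0.46 FPKM with CD. Inhbb, Nodal and Mstn were listed at 0 in every library.

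Regulators of receptor and SMAD turnover were lower in 11 of 18 tested cases and higher in 3, with a median of -0.29. Usp9x, a deubiquitinase gene, had 10.2 ± 0.518 FPKM with SGFD and 14.7 ± 0.267 FPKM with CD. Usp11, of the same class, had 15.0 ± 1.16 FPKM with SGFD and 21.5 ± 1.06 FPKM with CD. Strap, which encodes a receptor-associated inhibitor that works with SMAD7, rose, with 111 ± 2.83 FPKM with SGFD and 86.1 ± 0.924 FPKM with CD, as did the deubiquitinase gene Uchl5, with 67.4 ± 1.72 FPKM with SGFD and 52.7 ± 0.92 FPKM with CD. Of 13 tested nuclear partners of SMADs 7 fell and none rose, with a median of -0.21. Beside both lists, 41.8% of all genes tested were lower and 17.7% higher, with a median of -0.13. The coactivator gene Ep300 had 15.3 ± 1.83 FPKM with SGFD and 21.9 ± 0.675 FPKM with CD, and Ncor1, Sin3a and Zeb1, genes of repressor proteins, fell by 0.38, 0.29 and 0.39 on the log2 scale. Length touches both of these lists: with the trend on annotated length removed, 3 turnover genes were lower and 5 higher, and 0 nuclear partners were lower and 1 higher. With implied length the counts were 2 lower and 5 higher for turnover, and 1 lower and 1 higher for nuclear partners. Usp9x, Ep300, Ncor1, Sin3a and Zeb1 lost their calls with either length.

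The kinase arm that runs from TGF-beta receptors through TAK1, the product of Map3k7, had 9 tested genes. Of these 4 fell and none rose, with a median of -0.17. That is near the 41.8% of all genes tested that fell and their median of -0.13. With equal FPKM sums 7 of the 9 were lower, and with either length trend removed 1 was. Median-ratio scaling left 1 lower and 1 higher. Tab1, which encodes an activator of TAK1, had 7.06 ± 0.268 FPKM with SGFD and 9.97 ± 0.646 FPKM with CD (limma, adjusted p = 0.000521). Map3k7 itself had 12.9 ± 1.31 FPKM with SGFD and 16.1 ± 1.27 FPKM with CD, and Tab2 and Mapk14 fell by 0.17 and 0.25 on the log2 scale. Without the annotated length trend, Map3k7, Tab2 and Mapk14 did not pass (limma, adjusted p = 0.797, 0.730 and 0.0542), and Tab2 turned to 0.021. After quantile normalization Map3k7 did not pass either (limma, adjusted p = 0.102). Map3k7, Tab2 and Mapk14 did not pass after median-ratio scaling (limma, adjusted p = 0.104, 0.749 and 0.101), and Tab2 did not pass without CD replicate 3 (0.0549).

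On the deposited values, genes known to be induced by TGF-beta were mostly higher, in contrast to the receptors and SMADs. The receptor and SMAD side of that contrast weakened with either length trend removed. The 10 genes then had 4 rises and 4 falls, and 3 of the 8 other receptor genes tested were lower. Of 15 listed 9 were tested, of which 6 rose and 1 fell, and the median was 0.74 on the log2 scale. Over all genes tested 17.7% rose and 41.8% fell. Bhlhe40, which encodes a transcriptional repressor, had 12.0, 15.2 and 9.69 FPKM in SGFD replicates 1 to 3, against 3.32, 4.06 and 2.95 FPKM in CD replicates 1 to 3. Tgfbi, which encodes a secreted matrix protein named for its induction by TGF-beta, had 18.5, 16.4 and 19.6 FPKM with SGFD, against 11.0, 9.89 and 10.4 FPKM with CD. The diets did not overlap for either gene. Junb, an AP-1 gene, had 480 ± 34.4 FPKM with SGFD and 279 ± 10.7 FPKM with CD, and Gadd45b, a stress gene, had 26.4 ± 6.82 FPKM with SGFD and 11.5 ± 1.14 FPKM with CD. Cdkn1a, the gene of the cell cycle inhibitor p21, stood at 3.15 times its CD level. Several of these genes (Cdkn1a, Junb, Gadd45b, Bhlhe40) are known to answer many other signals too.

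Not every target rose. Klf10, an early TGF-beta-inducible gene, had 12.1 ± 1.98 FPKM with SGFD and 10.4 ± 0.822 FPKM with CD and did not pass (limma, adjusted p = 0.129). Cdkn1c, the gene of the inhibitor p57, was the one that fell (limma, adjusted p = 0.0256), a call lost after median-ratio scaling or quantile normalization, with the replicate number as a block, or without CD replicate 1 or 2 or SGFD replicate 1 or 2. Pmepa1, a direct SMAD target below the filter, had 0.302, 0.301 and 0.182 FPKM with SGFD, against 0.505, 0.525 and 0.491 FPKM with CD, lower in every SGFD library. Cdkn2b and Ctgf were listed at 0 in every library. Ldlrad4, a SMAD target that dampens the signal, was not called, with 3.40 ± 0.339 FPKM with SGFD and 3.55 ± 0.314 FPKM with CD.

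BMP target genes had 4 rises and 1 fall among 5 tested of 10 listed, against 17.7% rises and 41.8% falls over all genes tested. Id1, a standard BMP readout that inhibits differentiation factors, had 9.69, 11.5 and 8.69 FPKM in SGFD replicates 1 to 3, against 1.47, 1.83 and 1.56 FPKM in CD replicates 1 to 3. That made 6.14 times the CD level, a log2 fold change of 2.06 ± 0.10 (SE; limma, adjusted p = 2.4e-07). Id3 had 3.38, 3.41 and 2.72 FPKM with SGFD, against 0.548, 0.780 and 1.17 FPKM with CD. Both genes were without overlap between diets, and the BMP receptor gene Bmpr2 and the BMP SMAD gene Smad5 were lower in the same libraries. Id2 and Bambi rose less, and Smad6, also a BMP target, was the one that fell. With a filter of 5 FPKM 2 rises and 0 falls of this list remained, and after quantile normalization 0 falls did. Id3 was below 1 FPKM in CD replicates 1 and 2.

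**Figure D4:**
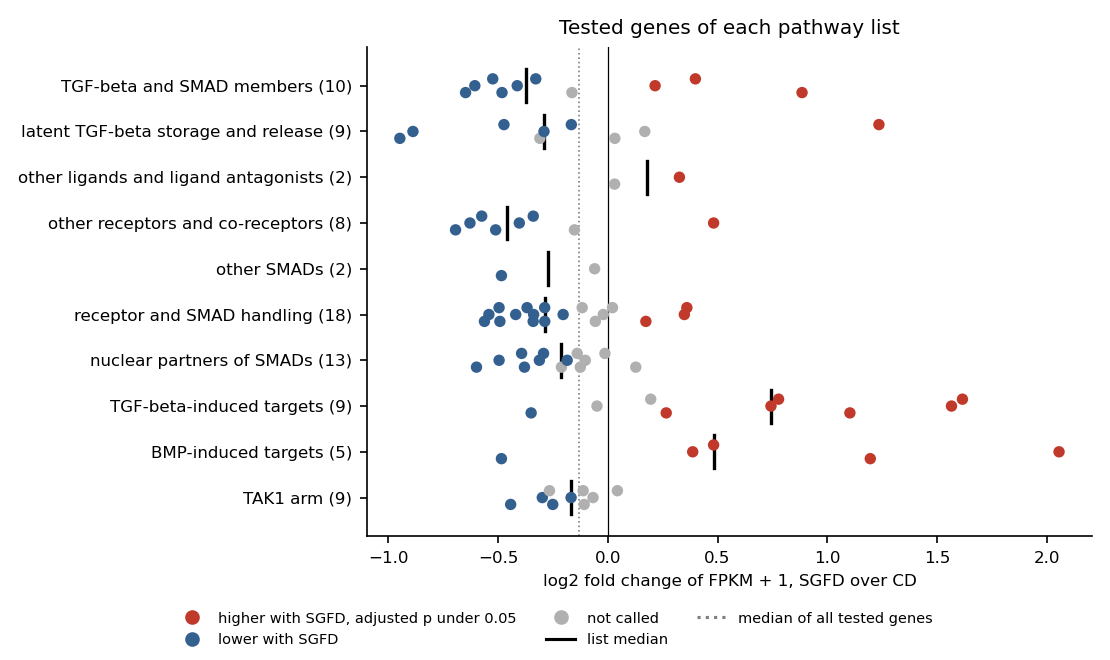
Log2 fold change of FPKM + 1, SGFD over CD, of every tested gene in the 10 pathway lists (points, coloured by call; numbers in parentheses are genes tested), with each list's median as a black bar and the median of all tested genes as a dotted line. On the deposited values, targets lie to the right (medians of 0.74 and 0.48) and receptors to the left (-0.46).

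The SGFD libraries themselves differed in these genes. Skil and Smad7 ran in the order replicate 2, replicate 1, replicate 3, from high to low. So did 7 of the 9 tested TGF-beta targets (Ldlrad4, Cdkn1a, Klf10, Junb, Gadd45b, Tsc22d1 and Bhlhe40) and 4 of the 5 tested BMP targets (Id1, Id2, Id3 and Bambi). It was also the order of 9 of 13 tested nuclear partners, 5 of 8 other receptor genes and 7 of 18 turnover genes. Falls outnumbered rises in those lists, so the order was not particular to targets. Genes for latent TGF-beta had it in 3 of 9 cases and the TAK1 arm in 1 of 9. Over all tested genes 28.2% had this order, and among the 1875 genes that rose it was 13.7%. Tgfb1 and Tgfbi had the reverse order, replicate 3, replicate 1, replicate 2, as did 38.3% of the genes that rose and 5 of the 8 monocyte markers. Among the 10 genes, Tgfbr1, Smad3, Smad7 and Skil had the first order and Tgfb1, Tgfbr2, Smad4 and Ski the reverse. In a principal component analysis of all tested genes the second component, with 7.25% of the variance, put SGFD replicate 2 at 10.8 and SGFD replicate 3 at -8.90. The order is a description of 3 libraries, and its cause was not tested.

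**Figure D5:**
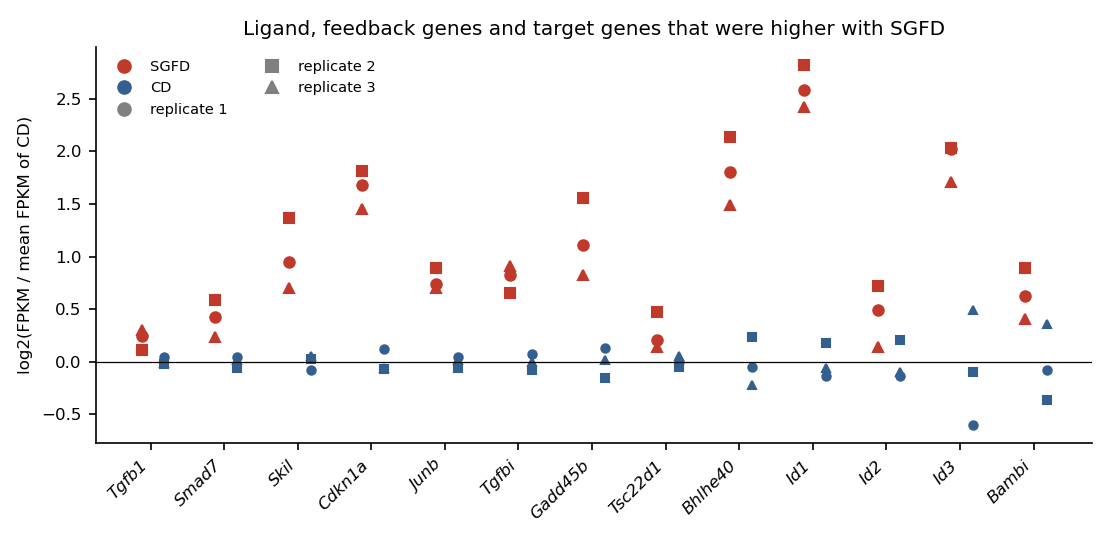
Log2 of FPKM over the mean FPKM of CD in each library (symbols, replicates 1 to 3; SGFD in red, CD in blue) for Tgfb1, Smad7, Skil and the target genes that rose. Replicate 2 is the highest SGFD library for every gene shown except Tgfb1 and Tgfbi, where it is the lowest.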

How the data were processed

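RNA was sequenced from cells sorted from bone marrow, with 3 SGFD and 3 CD libraries. The submitters' processing notes list fastp, HISAT2 and StringTie, with GRCm38 and mm10 as builds; their versions and settings are not given in the sources used here. The deposited values are FPKM as made by the authors, a unit inferred from the values. For 99.8% of the genes above 0 they were whole multiples of 1 fragment within 0.02 fragments. Recovered fragments numbered 16661018 to 17796015 per library, covering 85.2% to 87.2% of FPKM.

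limma 3.58.1 (R 4.3.3; trend and robust moderation) was run on log2(FPKM + 1) for genes at 1 FPKM or more in at least 3 libraries, a scale that understates changes of low genes. Two-sided p-values were Benjamini-Hochberg adjusted over all 10620 genes. Values given as times the CD level compare mean FPKM. Ratios within a library were compared with exact permutation tests. All 10 genes are named, with up to 4 genes of smallest p from each of 9 other lists and others that did not pass or went against their list. Gadd45b, Tsc22d1 and Id2, and the genes listed by library order, were named after their values were seen. The genes, lists and tests were chosen with earlier results of these data known. Coordinates and upstream sequences are from RefSeq (GRCm38.p6), annotated transcript lengths from GENCODE.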

Additional observations from a re-analysis of the deposited data

How the results depend on the processing

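The alternatives were no filter on low values or one of 5 FPKM, pseudocounts of 0.1 and 0.01, median-ratio scaling, quantile normalization, equal FPKM sums, removal of a trend with annotated length, a variance model without trend, array quality weights, the replicate number as a block, and leaving out each library; the trend with implied length was added after seeing the data. Count tests were planned only for files that hold counts and were not run on the recovered fragments. The log2 fold changes of Smad3, Smad5, Smad7, Ski and Skil kept direction and call under all 18 alternatives, ranging from 0.72 to 1.21 for Skil and from -0.78 to -0.33 for Smad5. Smad2 reversed after quantile normalization (0.050), and with the annotated (0.21) or implied (0.22) length trend removed. Tgfbr1 also lost its call after quantile normalization (-0.18).

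Calls over all genes, 1875 higher and 4438 lower, became 3170 and 2712 with median-ratio scaling, 2261 and 2552 with quantile normalization, 1030 and 6351 with equal FPKM sums, 2733 and 2325 without the annotated length trend and 2621 and 2261 without the implied one. The 10 genes, 3 higher and 6 lower, became 2 and 7 with equal sums and 4 and 4 without either length trend. The other 9 lists had 35 genes lower, against 22 with median-ratio scaling, 21 with quantile normalization and 12 without either length trend. Without 1 library the calls ran from 1596 to 1922 higher and from 3588 to 4606 lower. The median log2 fold change of all genes, -0.13, was 0.0071 with median-ratio scaling, -0.017 with quantile normalization, -0.26 with equal sums and 0.0008 and 0.0035 without the annotated and implied length trends. Other reversals were of Gdf3 (-0.069 with equal sums, -0.091 with array weights and -0.069 to 0.13 without 1 library), Smad1 (0.078 with median-ratio scaling, 0.14 with quantile normalization, 0.090 and 0.055 without the annotated and implied length trends, -0.15 to 0.044 without 1 library), Ncor1 (0.025 and 0.058) and Tab2 (0.021 and 0.094) without those trends, and Usp9x (0.014) without the annotated one. Leaving out 1 library moved the log2 ratio of Tgfbr1 to Tgfbr2 between -0.099 and 0.19, and the share of Smad2 and Smad3 between -0.39 and 0.25 percentage points. The cause of these changes was not tested.

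With the replicate number as a block the 10 genes had 3 rises and 6 falls, as without it, and all genes 1706 rises and 4087 falls. Same-numbered libraries did not deviate together (correlations of -0.0068, -0.23 and -0.13). As the deviations were taken within 3 libraries per diet, these correlations cannot exclude pairing by number.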

Other observations

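Some pathway genes below the filter differed between the diets without overlap; no test was made for them. Thbs1, which encodes thrombospondin 1, an activator of latent TGF-beta, had 0.898, 0.813 and 0.606 FPKM with SGFD, against 0.268, 0.191 and 0.245 FPKM with CD. Bmp4 had 0.841, 0.394 and 0.347 FPKM with SGFD, against 0.183, 0.116 and 0.0929 FPKM with CD. Hey1, a target of BMP and Notch signals, had 0.861, 1.49 and 0.591 FPKM with SGFD, against 0.302, 0.176 and 0.220 FPKM with CD, and Gdf11, a ligand of the activin group, had 0.431, 0.0276 and 0.146 FPKM with SGFD, against 0.634, 0.791 and 0.763 FPKM with CD. Bmpr1a was also higher without overlap, while Ltbp4, Fbn1, Nog, Rgmb and Pmepa1 were lower without overlap. For Nog and Fbn1 the gap was slight. Nog was at 0.0271 FPKM in SGFD replicate 1 and at 0 in SGFD replicates 2 and 3, against 0.0276 FPKM in CD replicate 2. The highest SGFD library for Fbn1 had 0.401 FPKM and the lowest CD library 0.408 FPKM. Among genes that passed the filter 65.2% did not overlap, and no such share was taken below it. The genes of this paragraph were chosen after their values were seen.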
